A study of Mus musculus with 8 samples.

Results

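The genes described here encode the proteins of tight, adherens and gap junctions and of desmosomes, measured by RNA-seq in AML12 cells after silencing of Casp8. They were taken by name from the table: 55 symbols of the claudin (Cldn), connexin (Gja, Gjb, Gjc, Gjd) and zonula occludens (Tjp) families and 15 further genes, among them the occludin, cadherin, catenin, nectin and desmosome genes, which makes 70 of 34945 genes. Tight junctions seal the space between neighbouring cells, and in liver they keep bile in the canaliculi; claudins, occludin and their relatives cross the membrane and zonula occludens proteins tie them to actin. Adherens junctions and desmosomes hold cells together through cadherins, which catenins and desmoplakin anchor to the cytoskeleton. Gap junctions are channels of connexins through which neighbouring hepatocytes pass ions and small metabolites.

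AML12 is an established hepatocyte line whose donor mouse was transgenic for human TGF-alpha, and both groups are this 1 line. The siCasp8 group is 4 cultures given Casp8 siRNAs, labelled as Casp8 knockdown, and the Scr group is 4 cultures given a scrambled control siRNA, labelled as wild type. Both received 40 nM siRNA with a lipid reagent and were harvested after 48 hours, and the study calls the cultures biological replicates. Casp8 encodes caspase-8, which starts cell death downstream of death receptors. The study looked for secreted genes that depend on it, and the junction genes are measured in the same libraries. Values are normalized per gene as deposited and are not scaled to gene length.

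Casp8 itself was at 1374, 1431, 1627 and 1490 in the siCasp8 libraries and at 3936, 3995, 4134 and 3825 in the Scr libraries, so 37.3% of the Scr mean was left (limma adjusted p = 5.94e-09). Estimated depth was 50.3 to 56.9 M reads in the siCasp8 libraries and 30.7 to 51.8 M in the Scr libraries, so the ranges overlapped. Mean depth was 54 M in siCasp8 and 38.1 M in Scr, so depth moves in part with the groups. Of 14 hepatocyte markers 11 were tested and 6 were higher and 1 lower in siCasp8, and the summed level of the list was 77436 to 81042 in siCasp8 and 59534 to 63871 in Scr. Over all tested genes 19.4% were called higher and 20.8% lower, or 9.21% and 10.5% with estimated depth as a covariate. Cholangiocyte markers, the genes of bile duct cells, were also abundant, with a summed level of 134346 to 142184 in siCasp8 and 121343 to 130219 in Scr, most of it from Spp1; 3 of 8 tested were higher and 4 lower, or 1 and 1 with estimated depth as a covariate. Endothelial markers summed to 225 to 344 in siCasp8 and 244 to 590 in Scr, and none of 3 tested was called. Stellate and fibroblast markers summed to 118 to 206 in siCasp8 and 133 to 194 in Scr. Of 3 tested, 2 were called higher and 1 lower, and none with the depth covariate. Macrophage markers summed to 579 to 654 in siCasp8 and 782 to 849 in Scr. Of 3 tested, 1 was called lower, Csf1r (log2 fold change -0.72), also with the depth covariate, and the others were not called. The endothelial genes Cdh5 and Lyve1 and the macrophage genes Adgre1, Clec4f, Cd5l, Marco and C1qa were at 0 in all 8 libraries. The part of the marker differences in the junction results was not tested, while results with depth as a covariate are given beside the genes they touch. In bulk RNA fewer cells of a type and less RNA per cell cannot be told apart.

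The connexin Gjb1, the cadherin Cdh1 and the tight junction membrane gene F11r rose after Casp8 silencing, while the cadherin Cdh2 and the nectin Nectin2 fell. Of the 70 genes, 34 had a mean of at least 10 over the 8 libraries and were tested, 15 had lower values and 21 were at 0 in all 8 libraries. Of the 34, limma called 10 higher and 7 lower, that is 29.4% and 20.6%, where 19.4% of all 14154 tested genes were called higher and 20.8% lower (40.2% in either direction). The median log2 fold change was 0.02 over the 34 genes and 0.00252 over all tested genes. The siCasp8 and Scr libraries did not overlap for 17 of the 34, where 37.5% of all tested genes did not overlap. With all 8 libraries, the share of junction genes called lower is thus near that of the transcriptome, and the share called higher is above it. The excess of genes called higher shrank when certain libraries were left out. Without siCasp8 replicate 4, 6 of the 34 were called higher, and 2408 of the 14154 genes tested. Without Scr replicate 1 these counts were 6 and 2427. With estimated depth as a covariate 5 junction genes were called higher and 3 lower, that is 14.7% and 8.82%, where 9.21% of all tested genes were called higher and 10.5% lower (19.7% in either direction).

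**Figure D1:**
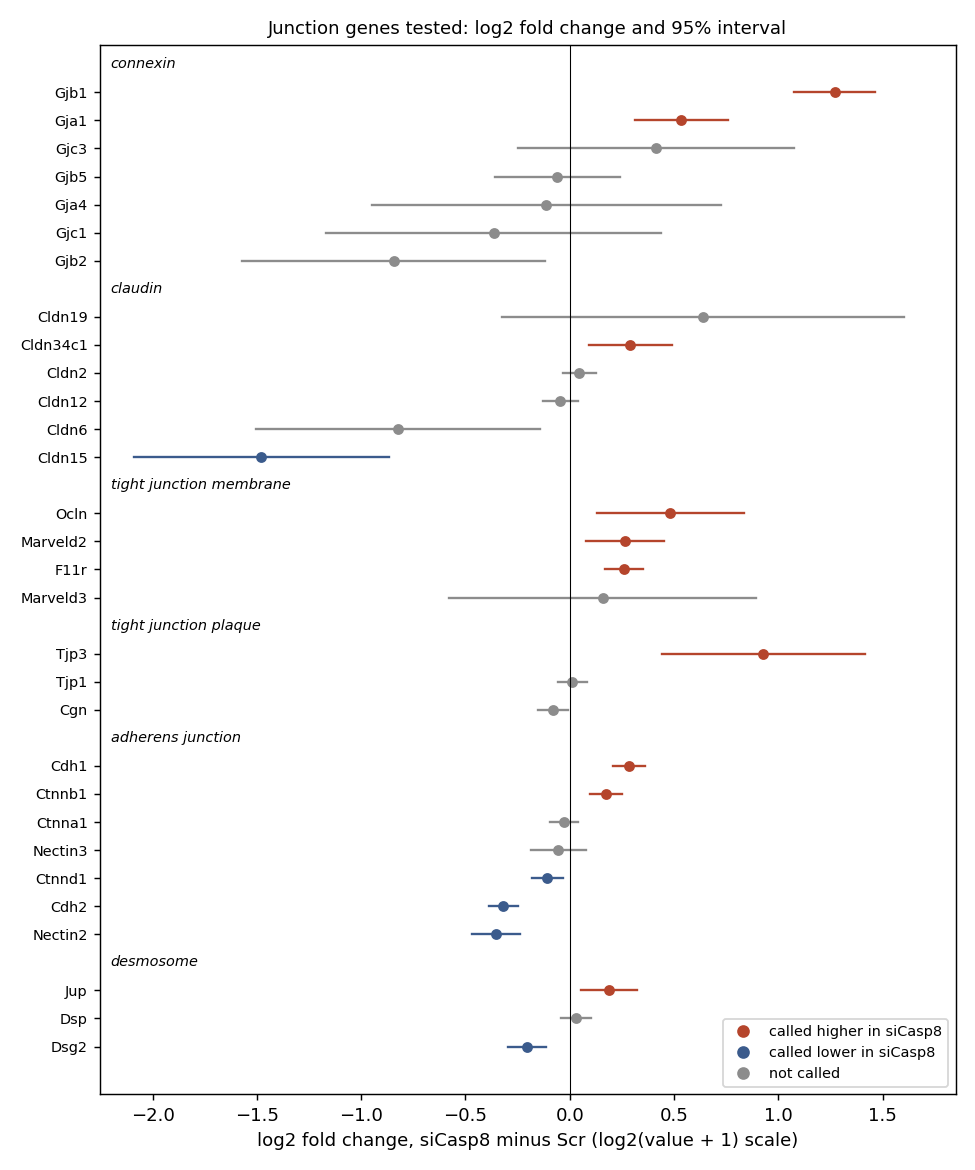
Log2 fold change of siCasp8 minus Scr (x axis, log2(value + 1) scale) for 30 of the tested junction genes, grouped by family, with points for the estimate and lines for its 95% interval. The genes called higher or lower in siCasp8 are coloured, and Gjb1 (1.27) and Cldn15 (-1.48) lie farthest out.

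The stretch upstream of a RefSeq start is shown for the connexins Gjb1 and Gja1, which rose, and for Nectin2 and Cldn15, which fell, as examples of members that moved in each direction (RefSeq, GRCm38.p6). Each is the 250 bases before the most upstream RefSeq start, read 5′ to 3′ on the strand of the gene. The GENCODE M21 annotation begins Nectin2 farther upstream, at 19750483, and Cldn15 at 136966616. The stretches of Nectin2 and Cldn15 therefore lie inside the gene in that annotation. Capitals mark the AP-1 word TGANTCA, the GC box GGGCGG, the CCAAT box CCAAT and the E-box CACCTG, searched on both strands.
Gjb1, chrX:101376126-101376375, plus strand: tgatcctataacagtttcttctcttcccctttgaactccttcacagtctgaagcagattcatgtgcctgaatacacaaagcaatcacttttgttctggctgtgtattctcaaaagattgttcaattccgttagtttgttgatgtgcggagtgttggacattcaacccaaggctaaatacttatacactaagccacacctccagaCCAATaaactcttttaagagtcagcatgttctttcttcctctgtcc
Gja1, chr10:56377050-56377299, plus strand: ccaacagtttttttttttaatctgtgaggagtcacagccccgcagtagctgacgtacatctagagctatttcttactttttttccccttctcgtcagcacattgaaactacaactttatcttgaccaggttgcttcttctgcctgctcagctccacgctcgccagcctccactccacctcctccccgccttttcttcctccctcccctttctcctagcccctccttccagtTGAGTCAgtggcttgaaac
Nectin2, chr7:19749574-19749823, minus strand: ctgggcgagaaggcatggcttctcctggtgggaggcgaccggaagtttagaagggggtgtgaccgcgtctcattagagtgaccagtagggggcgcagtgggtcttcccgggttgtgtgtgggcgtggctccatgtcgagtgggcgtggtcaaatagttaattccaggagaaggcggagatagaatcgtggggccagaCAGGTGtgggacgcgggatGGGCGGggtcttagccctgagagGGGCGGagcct
Cldn15, chr5:136967619-136967868, plus strand: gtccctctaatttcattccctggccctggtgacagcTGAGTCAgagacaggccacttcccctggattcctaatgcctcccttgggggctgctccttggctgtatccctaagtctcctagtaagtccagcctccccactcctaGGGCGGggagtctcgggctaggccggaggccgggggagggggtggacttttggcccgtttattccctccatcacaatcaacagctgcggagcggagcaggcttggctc

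Of the 4 printed stretches, those of Gjb1 (40.4%) and Gja1 (50%) are less rich in G and C than those of Nectin2 (62%) and Cldn15 (60.8%). This does not hold for connexins in general. Other Gjb1 starts had 50%, 53.2% and 58.4%. Among further tested connexins Gjb2 had 69.2%, Gja4 61.2%, Gjb5 54.4% and Gjc3 48.8%. The Gjb1 stretch holds 1 CCAAT box and the Gja1 stretch 1 AP-1 word. Nectin2 holds 2 GC boxes and 1 E-box, the word that the repressors of the Snail and ZEB families bind. Cldn15 holds 1 AP-1 word and 1 GC box. A promoter of any RefSeq start was found for 24 of the 34 tested genes, and 7 of these, or 29.2%, held the E-box at any start. Of the 10639 genes with a promoter among all tested genes, 18.3% did. Genes with more starts had more chances of a match. Among genes called higher 4 of 9 with a promoter held it, namely F11r, Tjp3, Ocln and Gjb1 (for Gjb1 at another of its starts than the one printed), and among genes called lower 1 of 3, Nectin2. Counted in the same way, the GC box was in 18 of the 24 (75%) and in 61.4% of all tested genes with a promoter. The CCAAT box was in 11 (45.8%) and 41%, and the AP-1 word in 3 (12.5%) and 5.87%. A word match is a description of the letters only.

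The hepatocyte connexin gene Gjb1 rose more than any other tested junction gene. Of 19 connexin genes 10 were tested, with 2 called higher, Gjb1 and Gja1, 2 called lower and 6 not called. Over all tested genes 19.4% were called higher and 20.8% lower. Gjb1, which encodes the main gap junction protein of mature hepatocytes, had 1284, 1239, 1139 and 1222 in the siCasp8 libraries and 512, 611, 450 and 463 in the Scr libraries. The lowest siCasp8 library stood well above the highest Scr library, and the difference on the log2 scale was 1.27 (SE 0.0882, limma adjusted p = 4.28e-07). Gja1, the widely expressed connexin of cultured and mesenchymal cells, had 307, 353, 281 and 261 in siCasp8 and 219, 204, 195 and 205 in Scr. It too was higher in every siCasp8 library, by 0.53 on the log2 scale (SE 0.102, limma adjusted p = 0.00122). The log2 ratio of Gja1 to Gjb1 within a library was -2.03 ± 0.171 in siCasp8 and -1.29 ± 0.19 in Scr (SD, n = 4 each), a difference of -0.74 with no overlap (exact two-sided permutation p = 0.0286, the smallest that 70 arrangements can give, and 0.0286 adjusted over 2 ratios). Gjb1 thus rose by more than Gja1 in these libraries. This p takes the libraries as unpaired, and the result with libraries paired by replicate number is given further below.

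Gjb5, a connexin known from epidermis, was not called, with 65.4 ± 2.68 in siCasp8 and 68.3 ± 5.83 in Scr (SD, n = 4 each, log2 fold change -0.06, 95% interval -0.36 to 0.24). Gja4, which encodes an endothelial connexin, was near the lower limit of testing with 11.4 ± 2.93 in siCasp8 and 12.9 ± 5.21 in Scr and was not called (-0.11).

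**Figure D2:**
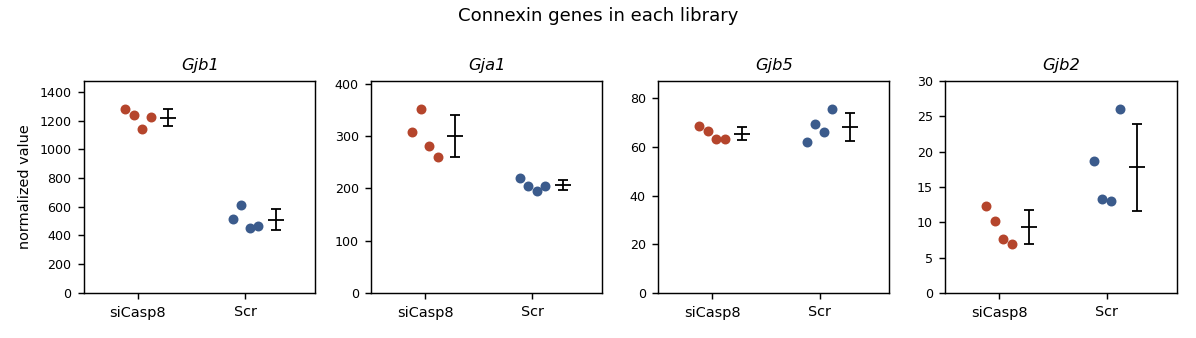
Normalized value (y axis, from 0) of 4 connexin genes in each library, with points for the 4 siCasp8 and the 4 Scr libraries and bars for mean and SD. Gjb1 and Gja1 are higher and Gjb2 lower in all siCasp8 libraries, and Gjb5 overlaps.

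Per kilobase of the longest coding transcript, which allows levels of different genes to be set side by side, Gjb1 took a larger part of the connexin transcripts after silencing. It made up 48.5%, 49%, 45.7% and 47.9% of the summed connexin value per kb in the siCasp8 libraries and 20.5%, 25.2%, 20.9% and 20% in the Scr libraries. Gja1 made up 5.86% ± 0.788 in siCasp8 and 4.38% ± 0.132 in Scr, and Gjb5 2.36% ± 0.0653 in siCasp8 and 2.69% ± 0.314 in Scr (SD, n = 4 each). The summed connexin value per kb was 1574 to 1669.7 in siCasp8 and 1358 to 1577 in Scr, so the ranges overlapped by little. These shares do not depend on the scaling between libraries.

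The further connexins named here were low. Gjb2, the second connexin of hepatocytes in mouse liver, had 12.3, 10.2, 7.7 and 6.99 in siCasp8 and 18.7, 13.3, 13 and 26.1 in Scr. The groups did not overlap, but the difference of -0.84 missed the threshold (SE 0.334, limma adjusted p = 0.0623), and the gene was tested through its Scr level, since its siCasp8 mean of 9.29 is under 10. Gjc1 and Gjc3 had means of 19 and 19.5 in siCasp8 and 25.6 and 14.4 in Scr and were not called. Gja5, with a mean of 9.73 over the 8 libraries, was the highest gene left untested; Gja4, with 12.1, was the lowest one tested.

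Both classical cadherins were abundant and moved apart. Cdh1, which encodes E-cadherin, had 32846, 33573, 33348 and 33979 in the siCasp8 libraries and 26116, 28302, 27090.1 and 28299 in the Scr libraries. All siCasp8 libraries were above all Scr libraries (log2 fold change 0.29, SE 0.0346, limma adjusted p = 3.82e-05). Cdh2, which encodes N-cadherin and is also made by hepatocytes, had 13299, 13385, 13435 and 13178 in siCasp8 and 17179, 16689.6, 16771 and 15817 in Scr. It was lower in every siCasp8 library (-0.32, SE 0.0328, limma adjusted p = 1.01e-05), and the siCasp8 cultures were closely alike, with a coefficient of variation of 0.844%. Within a library the log2 ratio of Cdh2 to Cdh1 was -1.33 ± 0.0277 in siCasp8 and -0.72 ± 0.1 in Scr (SD, n = 4 each), a difference of -0.60 (exact two-sided permutation p = 0.0286, the smallest possible, and 0.0286 adjusted over 2 ratios). This p was fixed once Cdh1 was higher and Cdh2 lower in every siCasp8 library. It adds no evidence to the results of the single genes, and it too takes the libraries as unpaired. Cdh1 was the more abundant of the pair per kb in both groups, with 7548 ± 107 in siCasp8 and 6197 ± 239 in Scr for Cdh1, and 2751 ± 23.2 in siCasp8 and 3431 ± 118 in Scr for Cdh2.

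Of the catenins, Ctnnb1, which encodes beta-catenin, the partner of cadherins and effector of Wnt signalling, had the highest level of all junction genes, on the deposited scale and per kb. Its values were 96787, 101654, 101413 and 99998 in siCasp8 and 85092, 89154, 89994 and 90222 in Scr. The groups did not overlap (log2 fold change 0.17, SE 0.0352, limma adjusted p = 0.00176). Ctnnd1, whose product p120-catenin stabilizes cadherins at the membrane, had 30319, 30988, 31435 and 29603 in siCasp8 and 31831, 33863, 33570.4 and 32537 in Scr. It fell by 0.11 on the log2 scale (SE 0.0339, limma adjusted p = 0.0238). Ctnna1, the actin linker alpha-catenin, was not called, with 31282 ± 509 in siCasp8 and 31872 ± 585 in Scr (SD, n = 4 each, -0.03, 95% interval -0.09 to 0.04). None of the 3 catenins was called with estimated depth as a covariate (Ctnnb1 0.13, adjusted p = 0.117, and Ctnnd1 -0.09, adjusted p = 0.269). Ctnnd1 kept its call in 11 of 18 alternative settings, and lost it under upper quartile rescaling, under quantile normalization, with no variance trend and without siCasp8 replicate 1, siCasp8 replicate 4 or Scr replicate 2.

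Nectins are immunoglobulin-type adhesion molecules that start adherens junctions. Nectin2 had 2559, 2543, 2411 and 2719 in siCasp8 and 3395, 3433, 2979 and 3268 in Scr. The highest siCasp8 library was below the lowest Scr library (log2 fold change -0.35, SE 0.0525, limma adjusted p = 0.000189). Nectin3 overlapped between the groups and was not called, with 1380.4 ± 56 in siCasp8 and 1436 ± 117 in Scr (-0.05, 95% interval -0.19 to 0.08).

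**Figure D3:**
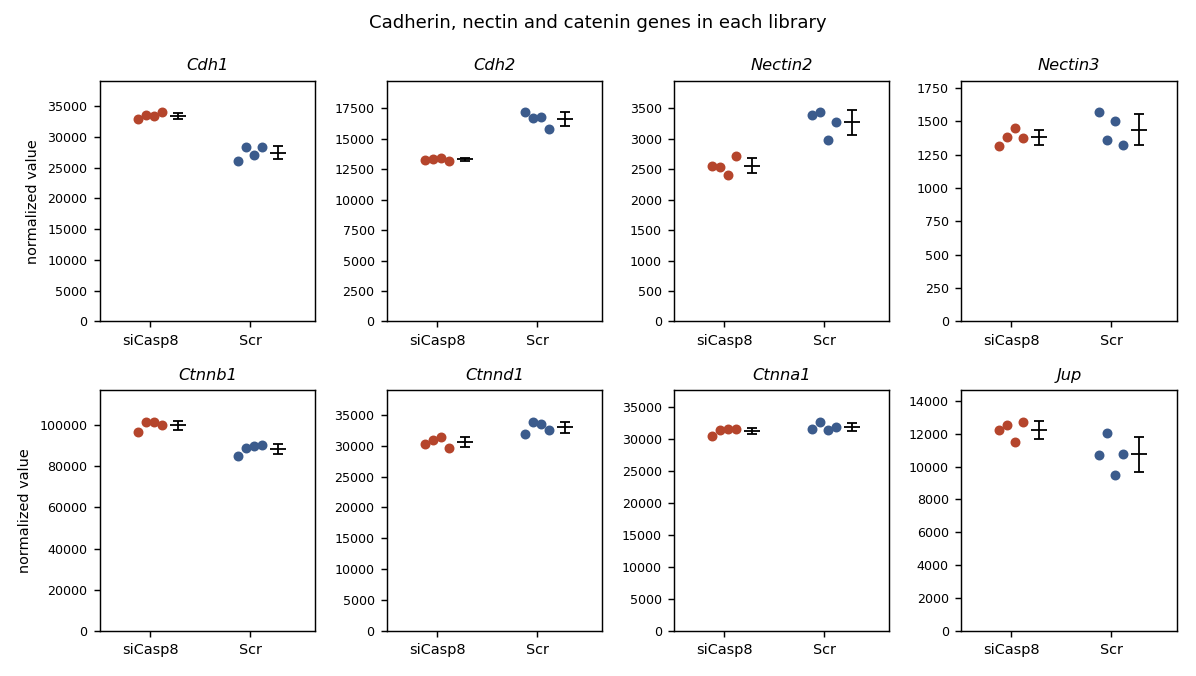
Normalized value (y axis, from 0) of cadherin, nectin and catenin genes in each library, with points for the 4 siCasp8 and the 4 Scr libraries and bars for mean and SD. Cdh1 and Ctnnb1 are higher, and Cdh2 and Nectin2 lower, in every siCasp8 library, and Ctnna1 and Nectin3 overlap.

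Of 3 desmosome genes 1 was called higher and 1 lower, and neither was called with the depth covariate. Over all tested genes 19.4% were called higher and 20.8% lower. Dsg2, a desmosomal cadherin, had 16913, 18227, 19016 and 18333 in siCasp8 and 20008, 21690, 21292 and 20505 in Scr, and was lower in every siCasp8 library (log2 fold change -0.20, SE 0.0413, limma adjusted p = 0.00175, and 0.0585 with the depth covariate). Jup, which encodes plakoglobin, the catenin of desmosomes and adherens junctions, had 12218, 12532, 11477 and 12732 in siCasp8 and 10688, 12064, 9480.1 and 10793 in Scr. It was called higher (0.19, SE 0.0615, limma adjusted p = 0.0265) although Scr replicate 2 lay within the siCasp8 range. The Jup call held in 11 of 18 alternative settings and ended with the depth covariate (adjusted p = 0.111), with no variance trend (0.0838) and without siCasp8 replicate 1, 2 or 4 or Scr replicate 1 or 3. Dsp, the desmoplakin gene, was not called, with 14290 ± 236 in siCasp8 and 14001 ± 497 in Scr (0.03).

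Claudins form the strands of tight junctions and set which ions pass. Of 33 claudin genes 6 were tested, and 3 of these carried nearly all of the claudin signal. Cldn2, which encodes a claudin that forms cation pores and is known in liver and other leaky epithelia, made up 76.3% ± 0.535 of the summed claudin value per kb in siCasp8 and 75.6% ± 1.14 in Scr (SD, n = 4 each). Its libraries held 16089, 15550, 15570 and 14948 in siCasp8 and 15601, 15304, 14719 and 14543 in Scr. The ranges overlapped, and the gene was not called (log2 fold change 0.05, 95% interval -0.03 to 0.12). Cldn12 followed with 18.4% ± 0.742 in siCasp8 and 19.5% ± 0.86 in Scr, and was not called (-0.05, 95% interval -0.13 to 0.04). Cldn34c1 made up 4.87% ± 0.574 in siCasp8 and 4.07% ± 0.474 in Scr and was called higher (0.29, SE 0.0913, limma adjusted p = 0.023), with libraries of 903 to 1205 in siCasp8 and 779 to 954 in Scr, which overlap. Its call held in 11 of 18 alternative settings and ended with no variance trend (adjusted p = 0.0642), without siCasp8 replicate 1, 3 or 4 or Scr replicate 1 or 2, and with the depth covariate, where the log2 fold change was 0.16 (adjusted p = 0.478). It belongs to a set of similar genes on the X chromosome, so reads may be split among copies and its value is uncertain.

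Cldn15, a cation-pore claudin known from intestine, was low and showed the largest fall among the tested junction genes. It had 12, 15.3, 27.2 and 26.2 in siCasp8 and 57.6, 67, 56.5 and 41.6 in Scr, with no overlap (log2 fold change -1.48, SE 0.281, limma adjusted p = 0.00116). The depth covariate ended this call, with -1.16 and an adjusted p of 0.0912 by limma. Cldn6, a claudin of embryonic epithelia, had 7.04, 11, 11.1 and 11.7 in siCasp8 and 14.4, 28, 16.5 and 17.4 in Scr, again apart, but missed the threshold (-0.82, limma adjusted p = 0.0542). Cldn19 was not called (0.64, 95% interval -0.32 to 1.60). Cldn1, a sealing claudin of liver, was at 0.874 and 0.773 in siCasp8 replicates 1 and 4, about 1 read each, and at 0 in the other 6 libraries. Cldn3 and Cldn5 were at 0 in all 8 libraries; by counting error alone a 0 allows up to 3 reads, worth 2.33 to 4.42 in these libraries, while none of 12 genes that every cell uses was at 0.

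Among the other membrane proteins of the tight junction 3 of 4 tested genes were called higher, and of these F11r alone was also called with the depth covariate. Over all tested genes 19.4% were called higher, or 9.21% with that covariate. F11r, which encodes junctional adhesion molecule A, had 9478, 9371, 9216 and 9759 in siCasp8 and 7847, 8529, 7602 and 7628 in Scr. The groups stood clearly apart (log2 fold change 0.26, SE 0.0409, limma adjusted p = 0.000284). Marveld2, which encodes tricellulin, found where 3 cells meet, had 408, 431, 462 and 436 in siCasp8 and 347, 389, 397 and 316 in Scr (0.27, SE 0.0858, limma adjusted p = 0.0268). The Marveld2 call ended with the depth covariate, where the log2 fold change was 0.40 (adjusted p = 0.0533), and without siCasp8 replicate 2, 3 or 4 or Scr replicate 1 or 4. Ocln, the occludin gene, had 92.2, 120, 127 and 122 in siCasp8 and 68.1, 79.6, 77.1 and 106 in Scr. Its groups overlapped through Scr replicate 4 and siCasp8 replicate 1, and the rise of 0.48 (SE 0.162, limma adjusted p = 0.0319) was 0.10 with depth as a covariate (adjusted p = 0.811). The Ocln call held in 9 of 18 alternative settings, and also ended with no filter, under quantile normalization and without siCasp8 replicate 2, 3 or 4 or Scr replicate 1, 2 or 3. Ocln and Marveld2 lie 43.2 kb apart on the minus strand of chromosome 13, from 100496507 to 100552718 and from 100595957 to 100616971 (GRCm38). Marveld3 was low and not called (0.16, 95% interval -0.58 to 0.90).

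Of the 4 genes of plaque proteins under the membrane, 1 was called, where 40.2% of all tested genes were called in either direction. Tjp1, the gene of the scaffold that ties claudins to actin, had 24129, 22882, 22844 and 23737 in siCasp8 and 22827, 23520.3, 22795 and 23612 in Scr, and the ranges overlapped (log2 fold change 0.01, 95% interval -0.06 to 0.08). The cingulin gene Cgn was lower in every siCasp8 library, with 4118 ± 63.8 in siCasp8 and 4356 ± 93.6 in Scr (SD, n = 4 each), but missed the threshold (-0.08, limma adjusted p = 0.0717). Tjp3, a paralogue of Tjp1, was far lower in level and rose, with 66, 54.8, 53.7 and 66 in siCasp8 and 23.3, 46.7, 31.7 and 26.5 in Scr and no overlap (0.93, SE 0.223, limma adjusted p = 0.00534). Tjp3 overlaps Apba3 on the other strand, which was at 1163 ± 122 in siCasp8 and 1131 ± 91.4 in Scr and was not called (0.04); the sources used here do not give whether counting used the strand.

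**Figure D4:**
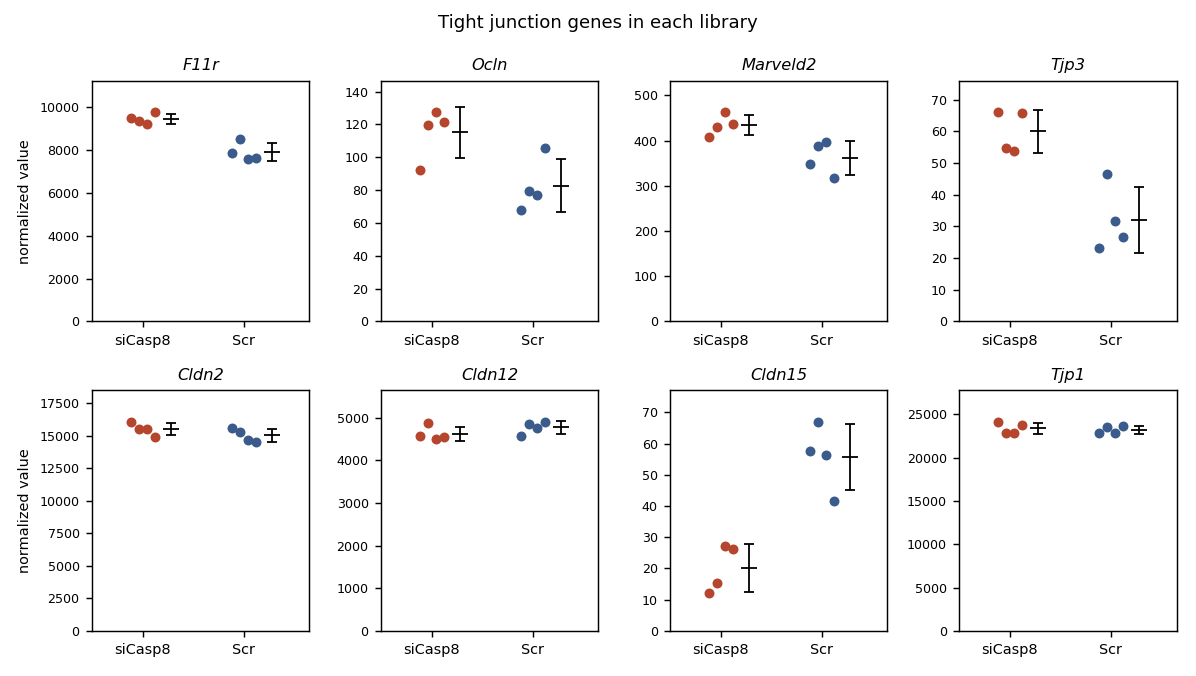
Normalized value (y axis, from 0) of tight junction genes in each library, with points for the 4 siCasp8 and the 4 Scr libraries and bars for mean and SD. F11r, Marveld2 and Tjp3 are higher and Cldn15 lower in every siCasp8 library, while Cldn2, Cldn12 and Tjp1 overlap.

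Of the 17 called junction genes, 8 were called under every alternative setting in which they were tested, among them Gjb1, Gja1, Cdh1, F11r and Tjp3 as higher and Cdh2 and Nectin2 as lower. With estimated depth as a covariate 9 of the 17 were no longer called. Without Scr replicate 1 or without siCasp8 replicate 4, 6 genes were called higher, against 10 with all libraries. Over all 14154 tested genes these fits called 2427 and 2408 higher, against 2739 with all libraries. Within a group, the coefficient of variation of the 16 tested genes with a mean of at least 1000 was at most 9.82%, while that of low genes reached 62.4%.

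Genes that work with these junctions also went both ways. The counts of each list stand beside 19.4% of all tested genes called higher and 20.8% called lower. With the depth covariate these shares were 9.21% and 10.5%. Of 13 scaffold and membrane partners of the tight junction 11 were tested, with 2 higher and 3 lower (median log2 fold change -0.05). The paracingulin gene Cgnl1 rose to 17039.6 ± 377 in siCasp8, against 14166 ± 435 in Scr (0.27, limma adjusted p = 4.94e-05), and Patj, a scaffold of the Crumbs complex, rose by 0.18 on the log2 scale, while Ildr2, an angulin of the contacts where 3 cells meet, fell by 0.40 and Ybx3 by 0.14. With the depth covariate 1 was called higher and 1 lower, and Patj (adjusted p = 0.359) and Ybx3 (0.636) were not called. Of 19 adherens junction partners 18 were found by symbol, all but Arvcf, and 14 were tested, with 4 higher and 7 lower (median -0.09). The liver-intestine cadherin Cdh17 rose to 6300.4 ± 321 in siCasp8, against 3148 ± 102 in Scr (1.00, limma adjusted p = 1.52e-08), and the actin-binding Lima1 rose by 0.23. The kidney-type cadherin Cdh16 fell to 9759 ± 518 in siCasp8, against 13929 ± 358 in Scr (-0.51, limma adjusted p = 1.25e-06), and Epb41l5 fell by 0.40. The depth covariate left 1 called higher and 6 lower, and Lima1 was not called (adjusted p = 0.0695).

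Of 15 apicobasal polarity genes Pals1 was not found under that symbol. The other 14 were tested, with 3 higher and 6 lower (median -0.11). The atypical protein kinase C gene Prkci fell to 9878 ± 698 in siCasp8, against 14595 ± 644 in Scr (-0.56, limma adjusted p = 3.22e-06), and Llgl2 fell by 0.42, whereas Crb3, an apical determinant, and Dlg1, a basolateral scaffold, rose by 0.29 and 0.16 on the log2 scale. Under the depth covariate Prkci kept its call (-0.55, adjusted p = 0.000904), and it was the 1 polarity gene called, while Llgl2 (-0.25, adjusted p = 0.137), Crb3 (0.0525) and Dlg1 (0.257) were not. Of 10 desmosome partners 7 were tested, with 2 higher and 3 lower, among them the low genes Dsc2 (1.06) and Dsg3 (-1.05) and the envelope gene Evpl (0.56) and the plakophilin gene Pkp2 (-0.19). Of these Dsg3 alone was called with the depth covariate (adjusted p = 0.0407), and Dsc2 was at 0.59 there (adjusted p = 0.174). Of 7 keratin and filament genes 6 were tested, with 1 higher, Des (1.94), at 45.3 ± 22.6 in siCasp8 and 12.1 ± 8.24 in Scr, and 3 lower, such as Krt8 (-0.31) and Krt19 (-0.15). Krt8 stayed called with the depth covariate (adjusted p = 0.00761), and Des (0.0557) and Krt19 (0.179) did not. Of 5 pannexins and regulators of gap junctions 4 were tested and 2 were lower, Nedd4 (-0.46), a ubiquitin ligase that acts on the Gja1 product, and Src (-0.13). Nedd4 kept its call in all 18 alternative settings and Src in 7 of 18.

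Of 16 transcription factors and splicing regulators of the epithelial and mesenchymal states 11 were tested, with 2 higher and 2 lower. The mesenchymal factors Zeb1 and Twist2 fell, Zeb1 to 3215 ± 207 in siCasp8, against 4248 ± 184 in Scr (-0.40, limma adjusted p = 4.58e-05), and Twist2 to 253 ± 10.2 in siCasp8, against 486 ± 59.3 in Scr (-0.93, limma adjusted p = 5.82e-06). The epithelial factors Elf3 and Klf4 rose by 0.53 and 0.23 on the log2 scale. Zeb1, Twist2 and Elf3 were called in all 18 alternative settings, while Klf4 was called in 11 of 18 and lost its call with the depth covariate (adjusted p = 0.266), with the replicate block and without siCasp8 replicate 1 or 4 or Scr replicate 1, 2 or 4. The 4 calls were 2 falls of mesenchymal factors and 2 rises of epithelial factors, and the median over the list was -0.03. The other 7 tested genes were not called and went both ways. Of the epithelial genes, Grhl2 (-0.52) and Grhl1 (-0.28) pointed down and Esrp2 was at -0.000447. The mesenchymal factors were Snai2 (-0.16), Zeb2 (-0.03), Snai1 (0.03) and Prrx1 (0.15). These lists were described by counts, and no test of a list was made.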

How the data were processed

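Poly-A RNA of 8 AML12 cultures was sequenced from Illumina TruSeq libraries, per the labels' protocols. Per the submitters' processing notes, the tools were bcl2fastq 2.19 and kallisto 0.44.0 beside sleuth and DESeq2, and the builds GRCm38 and GRCh38, with no roles stated. The table was deposited by the authors as a normalized signal per gene, kallisto estimates normalized with DESeq2 per its name; the sources used here do not give the annotation or the summing of transcripts. Libraries were grouped by their titles.

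Depth was estimated from the value that 1 read is worth among low values; since 65.95% to 75.1% of low values lay within 0.1 read of a whole multiple, reads were not recovered and no count model was used. Genes with a mean of at least 10 over the 8 libraries (14154 of 34945) were tested with limma 3.58.1 in R 4.3.3 on log2(value + 1), with a variance trend, two-sided, Benjamini-Hochberg adjustment over all tested genes and calls at an adjusted p under 0.05. This scale understates changes of low genes. The fit was tested on simulated data. Intervals cover the spread between cultures. Levels per kb used the longest basic coding transcript of GENCODE M21 (GRCm38), which named 69 of the 70 genes and gave a length for 68. The planned ratio of Cldn2 to Cldn1 was not formed, since Cldn1 was at 0 in 6 libraries. Certain junction genes are not reported here by name but are part of every count. Tested junction genes could be named, with library values for called genes changed by at least 0.3 and for a fixed set of main members, and in each partner list the 2 called genes of smallest adjusted p per direction. The uncalled epithelial and mesenchymal regulators were also named, after their values were seen. Members and lists were chosen with earlier results of these data known. The partner genes were recomputed under the alternatives after the data were seen. The alternatives changed the pseudocount, filter, scaling, trend, block, depth covariate or 1 library.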

Additional observations from a re-analysis of the deposited data

Results flagged for a closer look

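In 4 of the 68 groups of 4 libraries (34 genes in 2 groups), 1 library lay far from the other 3 by Dixon's criterion at 95%, which chance alone exceeds in about 1 of 20 groups. The desmoplakin gene Dsp was at 13261 in Scr replicate 3, while the other Scr libraries held 14299.8, 14156 and 14285.5. Cgn was at 4022 in siCasp8 replicate 1 and at 4147 to 4154 in the other siCasp8 libraries. Cldn6 was at 7.04 in siCasp8 replicate 1 and at 11 to 11.7 in the others, and Gja4 at 7.01 in siCasp8 replicate 4 and at 12.3 to 13.3 in the others. None of these 4 genes was called by limma. Without siCasp8 replicate 4 the log2 fold change of Gja4 was 0.09, against -0.11 with all libraries, and it was not called in either fit.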

How the results depend on the processing

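With estimated depth as a covariate, 2794 genes were called over the transcriptome, against 5689 without it, and 5 junction genes were called higher and 3 lower, against 10 and 7. Leaving out 1 library gave 6 to 9 junction genes called higher, and 2264 to 2751 of all tested genes. The median log2 fold change of the tested junction genes was 0.046 after upper quartile rescaling (0.0289 over all tested genes) and 0.0404 under quantile normalization, against 0.0195. No called junction gene changed direction under any of the 18 alternatives. Genes that were not called and lay near 0 changed sign: Ctnna1 (0.00643) and Marveld3 (-0.052) under quantile normalization, Nectin3 (0.027) and Marveld3 (-0.36) with the depth covariate, and, over the fits that left out 1 library, Tjp1 (-0.00217 to 0.0242), Marveld3 (-0.068 to 0.42) and Gja4 (-0.42 to 0.085). Of 602 recomputed single-gene values, 543 kept direction and call, 40 lost the call and 10 gained one. Libraries with the same replicate number correlated by 0.0442 to 0.169 in their deviations from the group means, and 1 of 4 pairs exceeded 0.1. The main fit did not take the numbers as pairs. All 8 libraries correlated best with their own number, however, so the cultures may be paired by number. With the replicate number as a block, 6020 genes were called and the junction counts stayed at 10 higher and 7 lower. The ratio differences of -0.60 (Cdh2 to Cdh1) and -0.74 (Gja1 to Gjb1) had p = 0.125 with the block in an exact permutation test of 4 pairs, the smallest p it allows. Genes of low value were limited by depth, since 1 read was worth 0.776 to 1.47. The causes of the other shifts were not tested.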

Other observations

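Gja5, which encodes a connexin of heart and arteries, had a mean just under the testing limit and was picked out here after its values were seen. It was at 5, 7.44, 4.88 and 8.84 in the siCasp8 libraries and at 13.7, 11.2, 13.6 and 13.2 in the Scr libraries. The groups did not overlap, and the gene was not tested with a mean of at least 10. With no filter on low values its log2 fold change was -0.92 and it was not called (limma adjusted p = 0.0714).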
